A study of Zea mays with 4 samples.

Results

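Pseudouridine (Ψ), an isomer of uridine that keeps the same base pairing face, was mapped in maize shoot mRNA with bisulfite-induced deletion sequencing (BID-seq). In BID-seq, bisulfite forms an adduct with Ψ that reverse transcriptase skips, and a skipped Ψ is read as a 1-base gap. The sites described here are coding Ψ sites with a guanosine on either side (GΨG), in genes that carried no other listed site. They were chosen from the deposited site list by 3 conditions: the site was listed as coding, its gene occurred in 1 row, and bases 10 and 12 of the listed 21-base window around the site, which is base 11, were G. Of the 388 listed sites, 267 were coding sites of genes listed once, and 58 of these were GΨG. Depth, gap ratio and fraction entered the choice only through the list itself, which holds sites that passed a P value-based filter by the authors. Whether a gene occurs in 1 row depends on that filter too. The other 209 coding sites of genes listed once serve as the comparison, and among them the 90 CΨC and 37 UΨG sites.

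All libraries came from shoots of young plants of the inbred line B73, grown in a greenhouse. There were 2 bisulfite-treated libraries and 2 input libraries, made from poly(A)-enriched RNA and labelled as replicates 1 and 2 of each kind. The list gives each site once, with gapped and ungapped reads summed over the replicates, so no value has a spread between replicates, and no gap ratio of the input libraries was used here. Errors below are Wilson 95% intervals, which cover the counting of reads or sites and nothing else. Sites of 1 map are not replicates of a condition, so differences between groups of sites are given as sizes with no p-value.

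The neighbouring guanosines limit which codons can hold a GΨG at each place of the codon. With Ψ as the middle base of the codon, the codon is GUG, for valine. With Ψ as the first base, the codon starts with UG and encodes cysteine or tryptophan or is a stop codon. With Ψ as the third base, the codon ends in GU and encodes glycine, arginine, cysteine or serine. Ψ is made by pseudouridine synthases, which recognise the sequence or shape of the RNA themselves or are led to it by a guide RNA. A uridine between guanosines has no neighbouring uridine, so a gap there can be placed at 1 base only.

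The windows of deep sites at each codon place show the 3 codon registers. They are given as RNA, 5′ to 3′, with coordinates on Zm-B73-REFERENCE-NAM-5.0, and capitals mark the codon that holds the site at base 11.
LOC100282160, GUG codon, chr4:176417229-176417249, minus strand: uucgaggccGUGucggggcuu
FAD2 (LOC100191328), GUG codon, chr5:211062632-211062652, minus strand: ggccgggugGUGcacaucgug
LOC100276619, GUG codon, chr5:214974581-214974601, plus strand: cugcacuccGUGaggagagcc
fdx5 (LOC103628935), GGU codon, chr6:6647682-6647702, minus strand: cccguggcGGUggcgccagca
L-FNRI (LOC542558), UGG codon, chr9:29042996-29043016, plus strand: agaggagcugUGGgagcuccu
LOC100303896, UGC codon, chr4:5787297-5787317, minus strand: cgggcucaugUGCugcaggca

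In the 3 GUG windows the capitals lie centred on base 11, in fdx5 they end there, and in L-FNRI and LOC100303896 they start there. LOC100282160 had 206 gapped of 3130 reads, a gap ratio of 6.58% (5.76 to 7.50), and FAD2, an oleate desaturase that introduces a double bond into membrane lipid acyl chains, had 204 of 1994 reads, or 10.2% (8.98 to 11.6). The gap ratio is the share of reads at a site that carry the gap, and the authors turned it into a Ψ fraction, an estimate of the share of modified transcripts, with a calibration curve. The Ψ fraction was 11.6% at LOC100282160 and 29.9% at FAD2. The 2 sites carried nearly the same number of gapped reads, and their intervals of the gap ratio did not overlap.

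Another 4 windows carry an A before the motif, the rarest base at that place. Capitals mark bases 9 to 13, AGΨGG in each.
LOC103641455, chr10:98447182-98447202, minus strand: caagacccAGUGGcaccauau
LOC100191313, chr7:114288850-114288870, plus strand: cauaucgaAGUGGauccuacc
fer1 (LOC542553), chr4:188949316-188949336, minus strand: cugaggagAGUGGgcaagggg
HO1 (LOC100193737), chr9:94262950-94262970, minus strand: guucuacaAGUGGgagggcaa

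LOC103641455 and LOC100191313 had the highest Ψ fractions of the 58 sites. The fraction was 78.3% at LOC103641455, which rested on 8 gapped of 26 reads (30.8%, interval 16.5 to 50.0), and 43.9% at LOC100191313, with 13 of 135 reads (9.63%, 5.71 to 15.8). The gap ratios of fer1 and HO1 were low, at 4.89% (67 of 1371 reads) and 4.52% (30 of 663 reads), while their fractions, 26.9% and 25.3%, lay above the median of the group.

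Across the 58 sites the Ψ fraction had a median of 19.0%, with quartiles of 14.1% and 26.9% and a range of 7.01% to 78.3%. The other 209 coding sites had a median of 26.9% and a range of 6.29% to 95.3%, a difference of medians of -7.85 percentage points. The medians of the CΨC and UΨG sites were 24.1% and 26.6%. A fraction under 20% was listed for 30 of 58 GΨG sites (51.7%, 39.2 to 64.1), for 59 of 209 other coding sites (28.2%) and for 36.6% of all 388 sites. Another 27 GΨG sites (46.6%) lay between 20% and 50%. A fraction over 50% was listed for 1 GΨG site (1.72%), against 28 other coding sites (13.4%) and 12.1% of all sites. That 1 site was LOC103641455 with its 26 reads.

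The gap ratio, before calibration, did not separate the groups in this way. Its median was 7.54% (quartiles 5.22 and 10.2, range 2.73 to 30.8) at the GΨG sites, against 7.12% at the other coding sites, 6.91% at CΨC and 8.65% at UΨG sites. The quotient of Ψ fraction and gap ratio, which is how far calibration raised a site, had a median of 2.71 at GΨG sites and 3.22 at the other coding sites. For the CΨC and UΨG sites it was 3.06 and 3.07. The lower fraction of GΨG sites therefore stood beside a gap ratio that was higher by 0.42 percentage points and a smaller calibration factor. With genes of several listed sites admitted to both groups, the difference of median gap ratios was -0.11 points, so its sign rests on the choice of genes. Which of the 2 scales is nearer to the true share of Ψ was not tested.

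Calibration followed the 5-base context closely, and within a context it also varied with the gap ratio. The 58 sites fell into 12 contexts of bases 9 to 13. In the 11 CGΨGG sites the quotient lay between 2.04 and 2.18, and in the 19 GGΨGG sites, the most frequent context, between 2.52 and 3.02, so these ranges did not overlap. The 6 GGΨGC sites had quotients between 2.93 and 3.16, and the 3 sites with U at base 13 had quotients between 1.69 and 1.86. The 4 AGΨGG sites had a median of 5.03, and their quotient fell as the gap ratio rose. It was 5.59 at HO1 (gap ratio 4.52%), 5.51 at fer1 (4.89%), 4.56 at LOC100191313 (9.63%) and 2.54 at LOC103641455 (30.8%, 26 reads). Among the GGΨGG sites it was 3.02 at fdx5 (3.49%) and 2.52 at csu861 (15.0%). The same gap ratio thus stood for unequal fractions: lox6 (CGΨGG, 5.19%) was listed at 11.2% and fer1 (AGΨGG, 4.89%) at 26.9%.

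Depth, the number of reads at a site, ranged from 26 to 5456 with a median of 374.5, against a median of 478 at the other coding sites. The 58 sites held 40354 reads in all, of which 2256 were gapped, and no site had fewer than 7 gapped reads. Depth under 50 reads was seen at 2 of 58 GΨG sites (3.45%), 14 of 209 other coding sites (6.70%) and 7.47% of all sites. The interval of the gap ratio had a median half-width of 2.62 percentage points. It was 8.29 points at the 8 sites under 100 reads and 0.99 points at the 13 sites of at least 1000 reads.

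**Figure D1:**
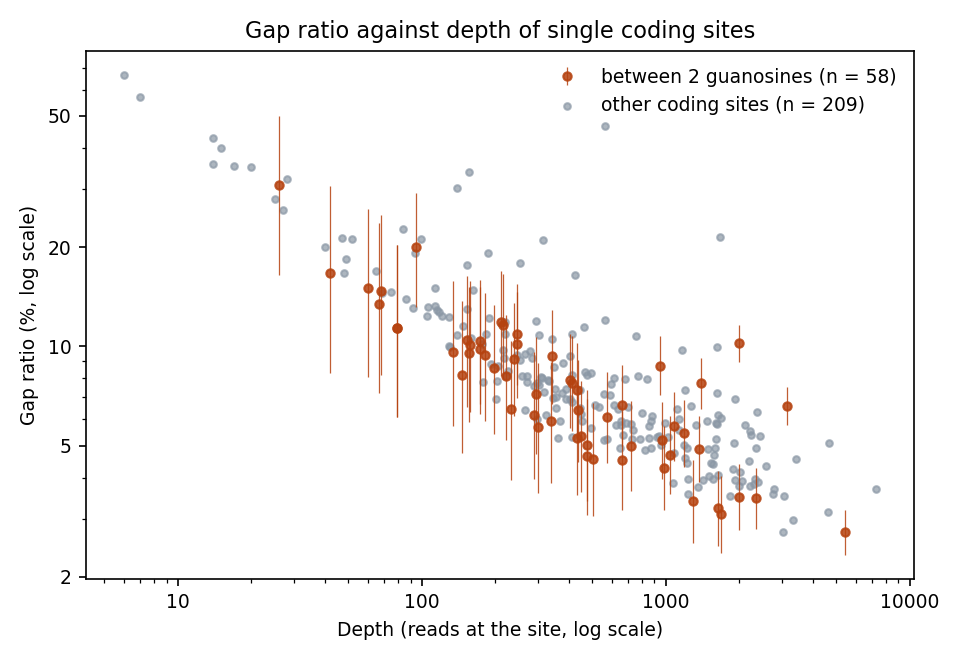
Gap ratio (percent, log scale) against depth (reads, log scale) for the 58 coding sites between 2 guanosines and the 209 other coding sites of genes listed once; each point is a site and the bars are Wilson 95% intervals. Gap ratios were lower at deeper sites in both groups, and the points of the groups overlapped.

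The deeper a GΨG site, the lower was its gap ratio, with a Spearman correlation of -0.82 over the 58 sites, against -0.85 over the 209 other coding sites. The correlation of depth with the Ψ fraction was -0.79 at the GΨG sites and -0.68 at the others. Depth is the denominator of the gap ratio, and sites entered the list only after a P value-based filter by the authors, so these correlations describe the list. The part of that filter in them was not tested.

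Because depth and fraction moved together, the groups were also set side by side in classes of depth. Under 200 reads the median fraction was 29.0% at 17 GΨG sites and 48.3% at 47 other coding sites, and the median gap ratio was 10.5% and 15.0%. From 200 to under 800 reads the median fraction was 17.8% at 25 GΨG sites and 26.4% at 87 others, with median gap ratios of 6.44% and 7.62%. From 800 reads the median fraction was 12.7% at 16 GΨG sites and 17.3% at 75 others, with median gap ratios of 4.79% and 4.92%. Depth was not matched within the classes. Median depths at GΨG sites and others were 135 and 105 reads in the lowest class, 406 and 392 in the middle and 1385 and 1609 in the deepest. The fraction was lower at GΨG sites in all 3 classes. The gap ratio was lower in all 3 classes as well, although it was higher over all depths, and in the deepest class the gap ratios nearly met.

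**Figure D2:**
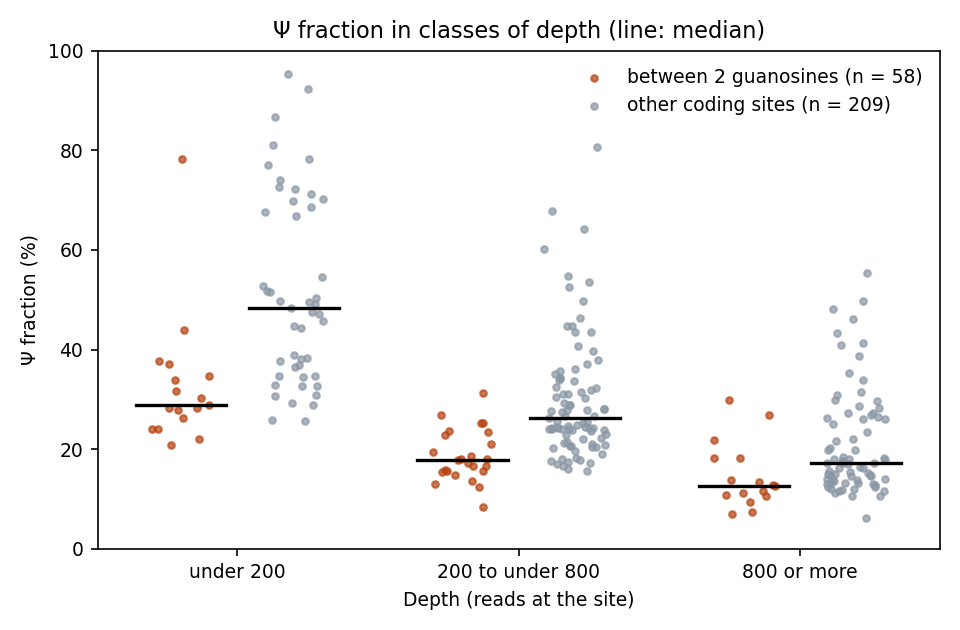
Ψ fraction (percent) of the 58 coding sites between 2 guanosines, left in each pair, and of the 209 other coding sites, right, in 3 classes of depth; points are sites, spread sideways for legibility, and lines are medians. The medians of the sites between guanosines were 29.0%, 17.8% and 12.7%, below those of the others, 48.3%, 26.4% and 17.3%.

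The codon place of the site could be read from the listed codon in 55 of 58 windows. In 36 of these 55 (65.5%, 52.3 to 76.6) the site was the second base of a GUG valine codon. It was the third base in 12 (21.8%) and the first base in 7 (12.7%). The other coding sites with a resolved codon were split 97, 66 and 41 of 204 over the second, the third and the first base, or 47.5%, 32.4% and 20.1%, and the second base held 51.0% of all listed coding sites with a resolved codon. GUG was thus the listed codon of 36 of 58 GΨG sites (62.1%, 49.2 to 73.4), with the sites of unresolved place counted as other codons. It was the codon of 13.6% of all listed coding sites. The only uridine of GUG lies between guanosines, so the rule leaves no GUG codon among the other coding sites (0 of 209).

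A uridine between guanosines that is not a listed site gives a share to set beside this one. The windows of the 267 coding sites held 63 other GUG triplets in a resolved frame. Their uridine was the second base of a codon in 30 (47.6%, 35.8 to 59.7), the third in 22 (34.9%) and the first in 11 (17.5%). The share at the second base was thus 65.5% at GΨG sites and 47.6% at unlisted GUG uridines, and the intervals of these shares overlapped. In 16 of the 58 windows, 23 further GUG triplets stood near the site.

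Among the codons of the other 19 resolved sites, GGU for glycine led with 10, followed by 6 UGG for tryptophan. UGC and UGU for cysteine and CGU for arginine had 1 site each. No serine codon and no stop codon was listed. In the 3 sites left out, LOC100282663, LOC100283631 and the rbcS gene LOC542212, the listed codon (GCC, CGU and CAC) did not encode the listed residue, valine, and the listed genomic window was shifted against the listed transcript window. Their listed coding base number put all 3 at the second base, which made 39 of 58 (67.2%) by that number alone.

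The 6 tryptophan sites were LOC103641455, HO1, LOC100193860, NIP1-1, lox6 and L-FNRI, with gap ratios from 3.39% to 30.8% and, without the 26 reads of LOC103641455, no higher than 7.88% at LOC100193860 (32 of 406 reads). The cysteine sites were LOC100303896 (UGC), with 52 of 1681 reads (3.09%, 2.37 to 4.03) and a fraction of 12.6%, and LOC100284902 (UGU), with 21 of 294 reads (7.14%, 4.72 to 10.7) and a fraction of 18.1%. The arginine site, LOC100382017, had 16 of 158 reads (10.1%, 6.33 to 15.8) and a fraction of 20.9%. The glycine sites ran from 8.45% at HDR to 34.7% at LOC103641153, with a median of 15.1%.

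The median Ψ fraction was 23.2% at the 36 sites of the second base, 16.6% at the 12 of the third and 13.1% at the 7 of the first. Depth moved along with it: the medians were 268, 402 and 663 reads in the same order. The ranges overlapped, with 7.01% to 43.9% at the second base, 8.45% to 34.7% at the third and 10.9% to 78.3% at the first. The part of depth in the difference between codon places was not tested.

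**Figure D3:**
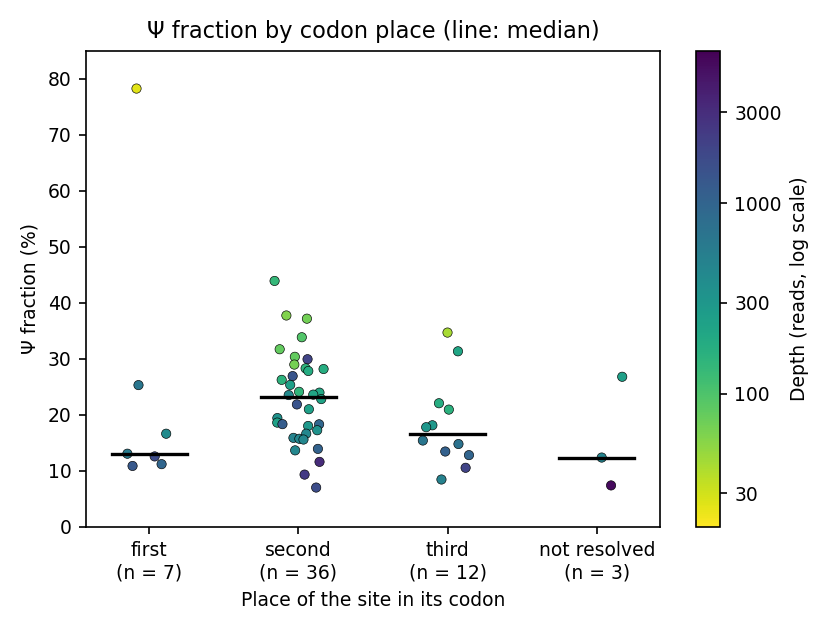
Ψ fraction (percent) of the 58 coding sites between 2 guanosines by the place of the site in its codon, with the 3 sites of unresolved place at the right; points are sites coloured by depth (reads, log scale) and lines are medians. The medians were 13.1% at the first, 23.2% at the second and 16.6% at the third base, with overlapping ranges and lower depth among the higher fractions.

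Outside the motif, the base after it was G in 37 of 58 sites (63.8%, 50.9 to 74.9), against 51 of 209 other coding sites (24.4%) and 33.0% of all sites. The remaining GΨG sites had A (10), C (8) or U (3) there. In the other coding sites U (82) and C (67) were the usual bases at that place, and in CΨC sites U was found in 65 of 90. The base before the motif was G in 32 of 58 (55.2%), close to the 130 of 209 other coding sites (62.2%) and to 61.1% of all sites. It was C in 17, U in 5 and A in 4. Base 8, the next one out, was G in 9 of 58 (15.5%), against 39.7% of the other coding sites.

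The windows of the GΨG sites were rich in G and C. The median G+C content was 71.4% (range 38.1 to 95.2), against 61.9% in the other coding sites. Without the site and its neighbours the medians were 72.2% and 61.1%, so the difference was there without the guanosines of the rule. As examples, base 18 was G or C in 84.5% of GΨG windows and 64.1% of the others, and base 7 in 75.9% and 51.7%. The excess did not hold at every base. Base 8 was C in 36.2% and G in 15.5% of GΨG windows, against 23.0% and 39.7% of the others. Base 14 was C in 31.0% and G in 29.3%, against 18.2% and 50.7%. Within the 58 sites, G+C content and fraction had a Spearman correlation of -0.06.

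Some windows could fold back around the site. A window was counted as able to form a hairpin where 4 or more stacked pairs, Watson-Crick or G-U, could enclose the site in a loop of 3 to 9 bases. This held for 34 of 58 GΨG sites (58.6%), 109 of 209 other coding sites (52.2%) and 52.8% of all sites, shares too close to set the GΨG sites apart. Long stems showed a larger gap: 12 GΨG sites (20.7%, 12.3 to 32.8) had a stem of at least 6 pairs, against 13 other coding sites (6.22%) and 9.79% of all sites. A stem of at least 7 pairs was found in 7 GΨG sites (12.1%) and 5 others (2.39%). Both counts of GΨG sites include couples of identical or nearly identical windows, described below, which the shares and intervals take as separate sites. The G+C content of the windows was higher at GΨG sites as well, and its part in the stem lengths was not tested.

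The windows with the longest stems are shown with the paired bases in capitals. The loop, in lower case between them, holds the site.
LOC100275786, chr5:78730319-78730339, plus strand: gGGCCGCCGgugaCGGCGGCC
LOC107303345, chr5:64439761-64439781, minus strand: gGCGCGGCGguggCGCCGCGC
L-FNRI, chr9:29042996-29043016, plus strand: agAGGAGCUgugggAGCUCCU
LOC100384303, chr6:152836559-152836579, plus strand: ugUGGGGUGgugaUACCCCAa
LOC103630286, chr6:152853331-152853351, plus strand: ugUGGGGUGgugaUACCCCAa
LOC100273173, chr5:14702663-14702683, minus strand: UCGGCGCuggugcGCGCCGGg
LOC100281994, chr1:264593963-264593983, minus strand: UCGGCGCuggugcGCGCCGGa

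LOC100275786 and LOC107303345 had stems of 8 pairs around loops of 4 bases, and the other 5 had stems of 7 pairs around loops of 4 to 6 bases. Their fractions ran from 10.9% (L-FNRI) to 29.0% (LOC100275786) with a median of 15.4%. Sites with a hairpin (34) had a median fraction of 19.8%, against 18.9% for the 24 without, and stem length and fraction had a Spearman correlation of -0.12. A possible stem in the window does not show that the RNA folds that way.

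**Figure D4:**
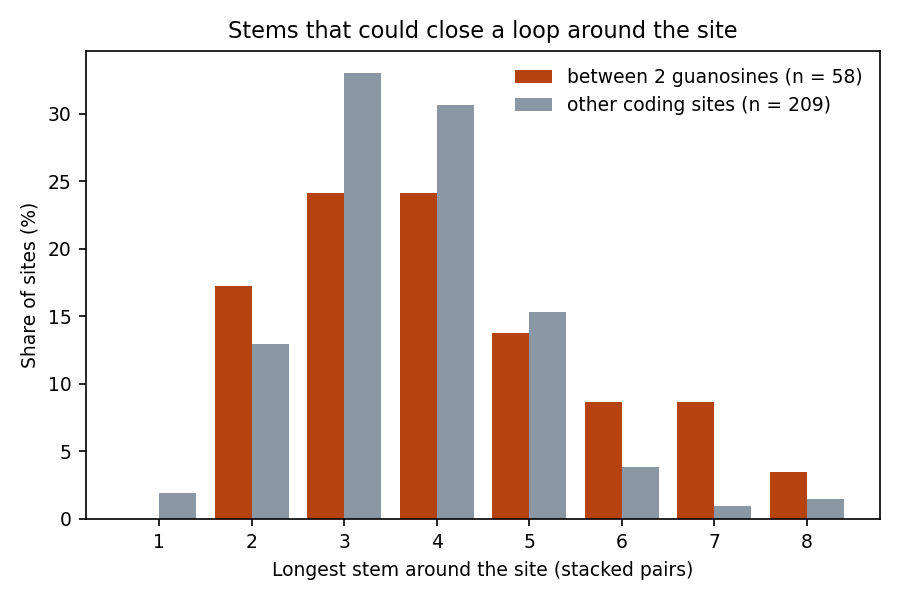
Share of sites (percent) by the number of stacked pairs in the longest stem that could close a loop around the site, for the 58 coding sites between 2 guanosines, left bars, and the 209 other coding sites, right bars. Stems of 6 to 8 pairs made up 20.7% of the sites between guanosines and 6.22% of the others.

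The last 4 of these windows form 2 pairs, and another pair shared its window without a long stem. Capitals mark the motif in that pair.
LOC103647611, chr2:201686620-201686640, plus strand: gagcgguucGUGggcggcagu
LOC100382204, chr2:201851392-201851412, plus strand: gagcgguucGUGggcggcagu

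The 2 sites of this pair lay 164772 bases apart on chromosome 2, with identical windows and coding bases 1247 and 1244. LOC103647611 had 83 gapped of 949 reads (8.75%, 7.11 to 10.7) and a fraction of 18.3%, and LOC100382204 had 32 of 435 reads (7.36%, 5.26 to 10.2) and a fraction of 15.6%. LOC103630286 and LOC100384303 lay 16772 bases apart on chromosome 6, both at coding base 1743. Their gap ratios were 5.73% (62 of 1082 reads, 4.50 to 7.28) and 6.63% (44 of 664 reads, 4.97 to 8.78), with fractions of 13.4% and 15.4%. LOC100273173 on chromosome 5 and LOC100281994 on chromosome 1 differed in the last base of the window only. Their gap ratios were 7.75% (32 of 413 reads, 5.54 to 10.7) and 9.39% (17 of 181 reads, 5.95 to 14.5), with fractions of 23.5% and 27.8%. In all 3 pairs the intervals of the gap ratios overlapped. Only the windows of a pair were compared, not the whole genes. Reads from near-identical genes can align to either copy, and how the authors placed such reads is not given in the sources used here. The members of a pair may therefore not be independent, which was not tested.

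Shorter runs of shared bases were as common here as in the rest of the list. Of the 58 sites, 55 (94.8%) shared at least 7 bases around the site with another listed site, against 190 of 209 other coding sites (90.9%) and 92.3% of all sites. At least 12 bases were shared by 9 GΨG sites (15.5%), 31 others (14.8%) and 14.4% of all sites. Besides the 6 sites of the pairs, the 9 were fdx5 and LOC107303345, which shared 12 bases with each other, and LOC100192494, which shared 12 with a site outside the coding sequences in LOC100274986. The 58 sites had 56 distinct windows.

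Along the coding sequence the sites ran from base 8 to base 2419, with a median of 548.5, against a median of 507 at the other coding sites. In the first 300 coding bases lay 18 of 58 GΨG sites (31.0%) and 52 of 209 others (24.9%). Beyond base 1000 lay 15 GΨG sites (25.9%) and 46 others (22.0%). These shares differed by less than the width of their intervals. The Spearman correlation of coding base and fraction was 0.05. The most 5′ sites were those of LOC100283631 at coding base 8, rbcS at 14 and LOC100194303 at 32, of which the first 2 had an unresolved codon.

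The listed distance to a splice site had a median of 147.5 bases, without regard to sign, against 100 at the other coding sites. Some listed distances run to the end of the gene: LOC103641153 had 1047 bases, with the site at 66439543 and the gene end at 66440590. The same held for LOC100276213 (608), LOC100275866 (557), fdx5 (492), LOC100277777 (463), LOC109943169 (449), LOC100282049 (416) and LOC100275786 (257). All of these exceed 100 bases. Such distances were not removed, and they were not counted at the other coding sites, so the medians and shares describe the listed values. Within 20 bases of a splice site lay 7 of 58 GΨG sites (12.1%), 31 of 209 others (14.8%) and 11.6% of all sites. Within 100 bases lay 21 GΨG sites (36.2%, 25.1 to 49.1) and 105 others (50.2%, 43.5 to 57.0), and these intervals overlapped. Among the others the share was 57.8% at CΨC and 64.9% at UΨG sites. It was 39.7% of all sites, which include sites outside coding sequences. The closest was LOC100283584, 1 base from a splice site, followed by fer1 at 14, LOC107303345 at 15 and LOC100191313 at 16 bases.

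At LOC100283584 (chr9:7617660-7617680, minus strand) the genomic window ran across the exon boundary, and the listed transcript window differed from it in its 5′ part, with base 1 the first and base 7 the last to differ. Capitals mark the motif, first in the genomic and then in the transcript window.
LOC100283584, genome: ucucaucagGUGgcaccgaag
LOC100283584, transcript: cagcucaagGUGgcaccgaag

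The site itself, with its GUG codon, was the same in both. It had 20 gapped of 338 reads (5.92%, 3.86 to 8.96) and a fraction of 17.2%, close to the median of the group.

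Of the highest fractions among sites with at least 40 reads, 8 lay between 30.4% and 43.9%. After LOC100191313 came csu861 with 37.7% (9 of 60 reads), LOC100277804 with 37.2% (10 of 68 reads), LOC103641153 with 34.7% (7 of 42 reads) and LOC100277777 with 33.8% (19 of 95 reads). LOC100192494 had 31.7% and LOC100278698 30.4%, each from 9 of 79 reads, and LOC100273158 had 31.3% from 25 of 211 reads. All 8 were shallower than the median of the group, 374.5 reads, and 6 of them were in GUG codons. The gap ratio of csu861, 15.0%, had an interval of 8.10 to 26.1, and that of LOC100277777, 20.0%, one of 13.2 to 29.1, and both overlapped those of the other sites among the 8. For the genes of these sites no role is given here.

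The lowest 6 fractions were 7.01% at LOC103644004 (53 of 1644 reads), 7.39% at rbcS, 8.45% at HDR, 9.33% at LOC100276619 (81 of 2342 reads), 10.5% at fdx5 and 10.9% at L-FNRI. HDR had 505 reads and the other 5 between 1299 and 5456. The gap ratios of these 5 lay between 2.73% and 3.49%. The widest of their intervals was that of L-FNRI, 2.53 to 4.52, so the lowest fractions were counted more precisely than the highest.

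The files and the RefSeq gene table gave 14 of the 58 genes a name or symbol from which a role was read. These genes were picked out after their names and values had been seen. The gene csu861 also has a symbol, but no role was read from it and it is not among the 14. Their sites had a median depth of 813 reads, a median gap ratio of 5.24% and a median fraction of 17.2%, so they were deeper than the group as a whole and close to it in fraction. They are described by the role of the product.

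Photosynthesis in the plastid was represented by 3 genes. rbcS (LOC542212, site at chr4:196178027) encodes the small subunit of Rubisco, the enzyme that fixes carbon dioxide. It was the deepest site, with 149 gapped of 5456 reads (2.73%, 2.33 to 3.20) and a fraction of 7.39%. fdx5 (LOC103628935, chr6:6647692) encodes a ferredoxin, an iron-sulphur electron carrier. It had 70 of 2004 reads (3.49%, 2.77 to 4.39) and a fraction of 10.5% in a GGU codon. L-FNRI (LOC542558, chr9:29043006) encodes a ferredoxin-NADP reductase, which passes electrons from ferredoxin to NADP. It had 44 of 1299 reads (3.39%, 2.53 to 4.52) and a fraction of 10.9% in a UGG codon, in the loop of a possible stem of 7 pairs. All 3 were among the 6 lowest fractions, each had at least 1299 reads, and the intervals of their gap ratios overlapped.

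Pigment and isoprenoid synthesis was represented by 3 genes. ZDS (LOC542604, chr7:17967648), a zeta-carotene desaturase of the carotenoid pathway, had 17 of 299 reads (5.69%, 3.58 to 8.92) and a fraction of 17.8%. HDR (lw1, chr1:279497550), the last enzyme of the plastid isoprenoid precursor pathway, had 23 of 505 reads (4.55%, 3.05 to 6.74) and a fraction of 8.45%, in the window with the lowest G+C content, 38.1%. HO1 (LOC100193737, chr9:94262960), a heme oxygenase that opens the heme ring on the way to the phytochrome chromophore, had 30 of 663 reads (4.52%, 3.19 to 6.39) and a fraction of 25.3%. HDR and HO1 had nearly the same gap ratio, and their listed fractions were 8.45% and 25.3%, with contexts GGΨGU and AGΨGG. The intervals of their gap ratios overlapped almost entirely.

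Lipid metabolism was represented by FAD2, described above, and by lox5 and lox6, placed here by their lipoxygenase symbols. The activity of the lox5 and lox6 products was not tested. lox5 (chr5:12866382) had 32 of 343 reads (9.33%, 6.69 to 12.9) and a fraction of 19.4%, and lox6 (chr2:4416033) had 50 of 963 reads (5.19%, 3.96 to 6.78) and a fraction of 11.2%. Their sites were in separate codons, GUG in lox5 at coding base 2042 and UGG in lox6 at coding base 2167. The gap ratio of FAD2 was the highest of the sites with at least 1000 reads, 10.2% (8.98 to 11.6), and its interval lay above those of rbcS, fdx5, L-FNRI, fer1 and PAL1.

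PAL1 and CM2 act in aromatic metabolism. PAL1 (LOC542258, chr5:190441176), phenylalanine ammonia lyase at the entry to phenylpropanoids, had 65 of 1191 reads (5.46%, 4.30 to 6.90) and a fraction of 18.3%. CM2 (LOC100191856, chr5:94294525), a chorismate mutase on the way to phenylalanine and tyrosine, had 17 of 173 reads (9.83%, 6.23 to 15.2) and a fraction of 22.1%. Their intervals overlapped.

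The remaining named genes were me2, fer1 and NIP1-1. me2 (LOC542331, chr6:150370682), a malic enzyme that decarboxylates malate to pyruvate, had 23 of 435 reads (5.29%, 3.55 to 7.81) and a fraction of 16.6%. fer1 (chr4:188949326), the iron storage protein ferritin, had a gap ratio interval of 3.87 to 6.16 around its 4.89% and lay 14 bases from a splice site. NIP1-1 (LOC542741, chr5:151136999), an aquaporin of the NOD26-like family, had 35 of 574 reads (6.10%, 4.42 to 8.36) and a fraction of 13.1% in a UGG codon.

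**Figure D5:**
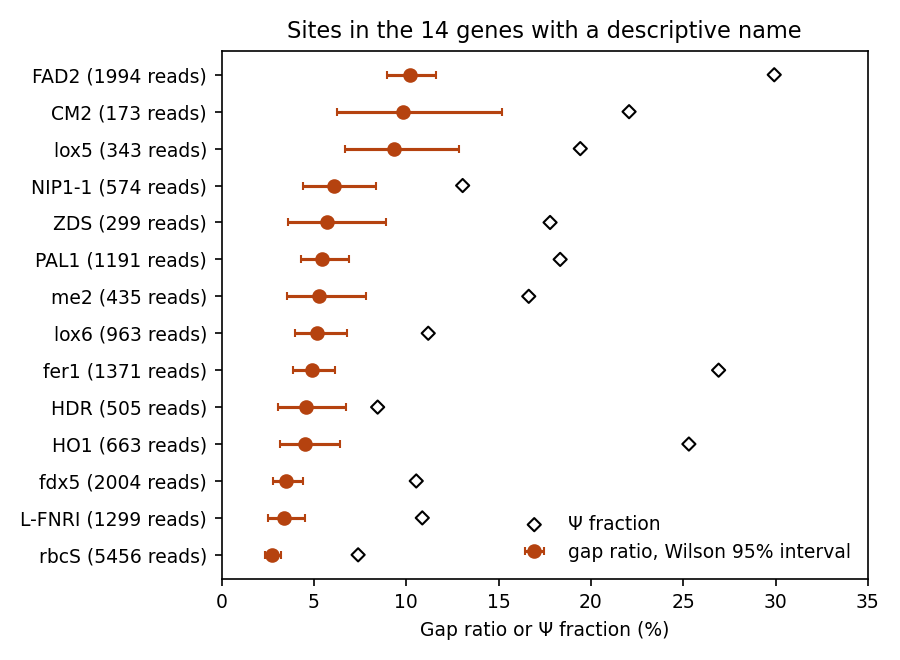
Gap ratio (percent, points with Wilson 95% intervals) and Ψ fraction (percent, diamonds) of the sites in the 14 genes with a descriptive name, in order of gap ratio, with the depth of each site in reads. Gap ratios ran from 2.73% (rbcS) to 10.2% (FAD2), and HO1 and fer1 had high fractions for their gap ratios.

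The 8 GUG sites with at least 1000 reads, a limit chosen after their values were seen, covered gap ratios from 3.22% to 10.2%. The lowest were LOC103644004 at 3.22% (2.47 to 4.19) and LOC100276619 at 3.46% (2.79 to 4.28). LOC100282049 followed with 49 of 1046 reads (4.68%, 3.56 to 6.14) and a fraction of 13.9%, then fer1 at 4.89%, PAL1 at 5.46% and LOC100282160 at 6.58%. LOC100276213 had 108 of 1399 reads (7.72%, 6.43 to 9.24) and a fraction of 21.9%, and FAD2 was the highest. In this order the interval of each site overlapped that of its neighbour, while those of LOC103644004 and FAD2 lay apart.

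The 58 sites were spread over all 10 numbered chromosomes. Chromosome 5 held 16, chromosome 1 held 7, chromosomes 2, 4, 6 and 9 held 6 each, chromosome 10 held 4, chromosomes 3 and 7 held 3 each and chromosome 8 held 1. By strand, 28 of 58 (48.3%) were on the plus strand, as were 102 of 209 other coding sites (48.8%). The list also carries a pass score of 1 or 2, whose meaning is not given in the sources used here. It was 2 at 19 of 58 GΨG sites (32.8%), 55 of 209 others (26.3%) and 30.9% of all sites. The GΨG sites with score 2 had a median depth of 664 reads and a median fraction of 19.4%, and those with score 1 had 290 reads and 18.6%.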

How the data were processed

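The authors sequenced bisulfite-treated and input libraries of maize shoot poly(A) RNA (2 of each) and called Ψ sites with the pseudoU-BIDseq pipeline on Zm-B73-REFERENCE-NAM-5.0. They summed gapped and ungapped reads over replicates and deposited per site the depth as read counts, the gap ratio as a fraction of reads, a calibrated Ψ fraction (another estimate between 0 and 1) and a pass score. Sites had passed a P value-based filter of theirs, whose threshold is not given in the sources used here. Depth per library is unknown.

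Here, gap ratios and Ψ fractions were written as percentages, and gapped reads were taken as depth times gap ratio, which came within 0.00244 of a whole number at every site. Shares and gap ratios have Wilson 95% intervals (SciPy 1.17.1, pandas 2.3.3, Python 3.11.15). PCR reads are not independent molecules. The codon place was taken from the frame in which the listed codon matches the window around the site, and left unresolved where the codon does not encode the listed residue. The listed residue number equalled that from the coding base at 26 sites and was above it by 1 at 24 and by 2 at 8, so it was not used. Hairpins were searched in the 21-base window. The scripts were tested on simulated windows. RefSeq's gene table for that assembly held all 58 genes.

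The members, lists and the hairpin rule were chosen with earlier results of these data known. Genes were named by fixed rules: at a depth of at least 40 reads the 8 highest and 6 lowest fractions, of all sites the 6 deepest and 3 shallowest, the deepest site per codon and place, and sites that share at least 7 bases with another. The last rule took in 55 sites, so of these only runs of at least 12 bases were named. Other sites named as examples of a codon, stem, place in the coding sequence, splice distance or depth were chosen after their values were seen. The planned measure of shoot expression was not used: the names of the 2 value columns of the expression table each fit an input and a treated library. Functional classes by keyword were not counted, since the tables used here hold no gene descriptions.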

Additional observations from a re-analysis of the deposited data

How the results depend on the processing

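No paired analysis was possible because each site is listed with reads summed over the replicates. For the same reason no replicate was left out in turn, and the alternatives on expression were not run. Values are for GΨG sites, and differences are GΨG sites minus other coding sites. With at least 200 reads the median fraction was 16.6% and the share under 20% was 73.2%. On the gap ratio scale the median was 7.54%, the share under 20% was 96.6%, and the difference of medians turned from -7.85 to 0.42 percentage points. The share over 50% was 0% with at least 50 reads, with at least 200, with pass score 2 only and with the gap ratio, since it rested on 1 site of 26 reads. With pass score 2 only the difference of median fractions was -11.4 points and the median depth 664. With multi-site genes admitted to both groups the difference of median gap ratios turned to -0.11 points. Among sites with a fraction of at least 20% the second base held 77.8% and GUG 75.0%. The other 30 values of the main results were counted as unmoved. The medians and shares among them stayed within the intervals of the main values. The differences among them, which have no interval here, kept their sign. Of single bases, C before the motif was found in 57.9%, G in 36.8% and U in 0% with pass score 2 only, and C in 14.3% with a fraction of at least 20%. Hairpins of Watson-Crick pairs alone were found in 34.5% of GΨG sites and 24.2% of all sites, an alternative chosen after seeing the data. Under 100 reads the interval of a single gap ratio had a median half-width of 8.29 points, and the error of a difference between such sites is larger. The cause of these changes was not tested.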
